A study of Arabidopsis thaliana with 36 samples.

Results

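Oxygenic photosynthesis begins in photosystem I and photosystem II (PSI and PSII), pigment-protein complexes of the chloroplast's thylakoid membranes that are fed with light energy by antenna proteins of the light-harvesting chlorophyll a/b-binding (LHC) family. The reaction centre proteins are encoded in the plastid, while the antenna and most of the surrounding subunits are encoded in the nucleus, made in the cytosol and imported. The genes described here are 37 nuclear genes of Arabidopsis thaliana for LHCA (PSI antenna), LHCB (PSII antenna), PSA (PSI) and PSB (PSII) proteins, taken as a list of locus identifiers and not picked by their measured values. Earlier results of these data were known when the list was chosen. All 37 had a row among the 33341 loci of the deposited counts, and 36 passed the filter on low counts, as did 19476 loci in all. Their transcripts are classically light-induced, are reduced when plastids are damaged, and are abundant in green seedling tissue.

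RNA was measured beside a healing graft. The hypocotyl (seedling stem) of 7-day-old plants was cut across and the upper part of a plant was set on the lower part of another, and all libraries carry the time 24 h after grafting. The tissues were the uncut hypocotyl (intact, a piece of 1 mm), the 0.5 mm above the junction (scion) and the 0.5 mm below it (rootstock). Each was taken from Col-0, the wild type, from a mutant labelled dof quadruple, and from mutants labelled erf114,115 and anac071,096, which makes 12 groups, each with 3 biological replicates according to the series design. All plants, intact ones included, had lost 1 cotyledon and were kept at 20 °C under 8 h of light and 16 h of dark. The sources used here do not give the genotype of a graft's other part, the number of plants behind a library or the lesions of the mutants.

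Library totals were 19.53 to 29.34 M counts in intact tissue, 22.07 to 30.49 M in scions and 20.92 to 26.07 M in rootstocks (M, the SI prefix mega). Levels are given as CPM, a gene's counts for each M counts that the library held on tested loci, after scaling between libraries. ERF114, ERF115, ANAC071 and ANAC096 were lower in the grafted tissues of the mutants named after them than in those of Col-0, though not absent, with means of 6.87, 0.882, 5.88 and 6.34 CPM in mutant scions against 58.6, 63.9, 23.7 and 33.2 CPM. For dof quadruple 1 gene was looked at, DOF6, chosen from general knowledge since the labels name no gene, and it had 1 count in the 9 dof quadruple libraries. Col-0 rootstock replicate 1 alone counted 2514 loci that were at 0 in every other library, against 8 to 34 such loci elsewhere. Markers of other cells moved with the tissue too. The summed level of 4 guard cell markers was 35.24 to 59.15 CPM in intact tissue, 15.18 to 33.03 in scions and 12.86 to 32.09 in rootstocks. That of 3 epidermis markers was 428.1 to 673.9, 269.3 to 404.7 and 196.3 to 361 CPM, and that of 3 phloem markers 149.6 to 249.9, 72.4 to 133.5 and 77.46 to 163.2 CPM. The 3 xylem markers summed to 77.38 to 183.5, 54.7 to 161.5 and 7.982 to 41.82 CPM, and the 3 endodermis markers to 1.039 to 167.5, 3.756 to 35.54 and 11.82 to 463 CPM. Of the shoot meristem markers CLV3 was at 0 throughout and WUS at 0 in intact tissue, and with STM, the other one, they summed to 0.3263 to 8.719, 1.852 to 14.98 and 0 to 0.9337 CPM. Root hair markers summed to at most 0.3999 CPM in any library. Of the usual reference genes, ACT2 and UBQ10 also fell in Col-0 scions, by a log2 change of -1.57 ± 0.27 (adjusted p = 1.33e-05) and -0.86 ± 0.20 (adjusted p = 0.000615), while PP2AA3 had 0.11 ± 0.18 (adjusted p = 0.624) and did not pass. The part of these markers in the results below was not tested, and in such pieces of tissue fewer green cells and less RNA per cell cannot be told apart.

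The photosystem and antenna genes took a large share of the counts in the uncut hypocotyl, less in rootstocks and the least in scions. Together they took 11.83% to 16.83% of the counts of an intact library (median 13.55%, n = 12), 2.648% to 4.179% of a scion library (median 3.238%) and 7.631% to 10.68% of a rootstock library (median 8.96%). The ranges of the 3 tissues did not overlap. In Col-0 the share was 13.7% ± 1.92 (SD, n = 3) in intact tissue, 3.05% ± 0.393 in the scions and 9.37% ± 1.03 in the rootstocks. It was 12.8% ± 1.41, 3.14% ± 0.339 and 8.32% ± 0.643 in dof quadruple, 14.3% ± 2.34, 3.57% ± 0.361 and 9.13% ± 1.35 in erf114,115 and 14.3% ± 1.02, 3.44% ± 0.641 and 9.83% ± 0.704 in anac071,096. The order of the tissues was therefore the same in every genotype, and within a tissue the genotypes overlapped, except that dof quadruple rootstocks lay below those of anac071,096. Replicate 1 held the highest share of its group in 9 of the 12 groups, replicate 2 in 0 and replicate 3 in 3.

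**Figure D1:**
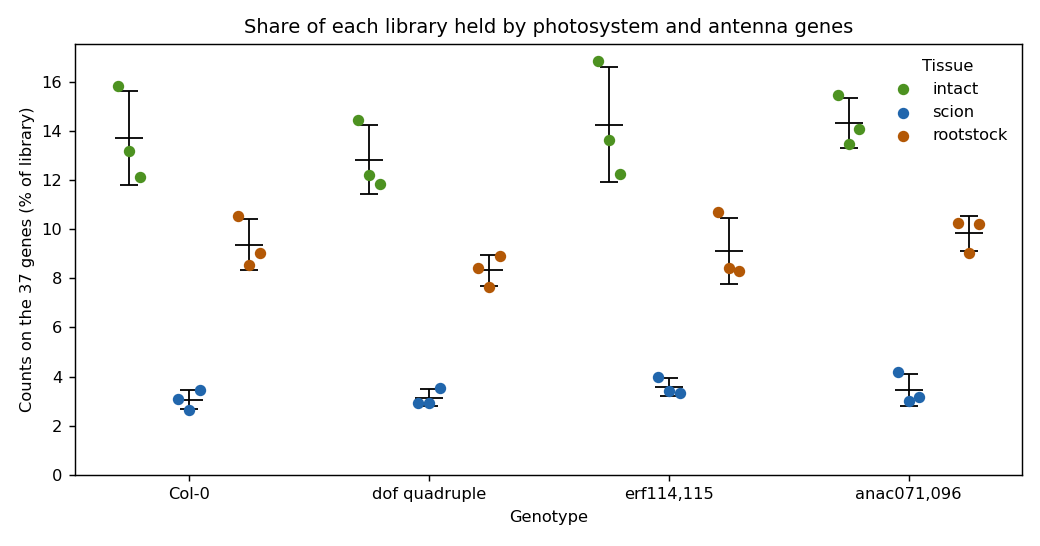
Percent of each library's counts on the 37 photosystem and antenna genes, by genotype and tissue; each point is a library, horizontal lines are means and bars the SD (n = 3). Scion libraries lie between 2.648% and 4.179%, rootstock libraries between 7.631% and 10.68% and intact libraries between 11.83% and 16.83%.

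Within that total the mixture changed less than the total itself. Antenna genes made up a median of 69% of the members' counts in intact tissue, 64.66% in the scions and 66.5% in the rootstocks. PSI genes with their antenna made up 30.86%, 30.68% and 30.03%. The oxygen-evolving side of PSII went from 12.99% in intact tissue to 14.98% in scions and 14.26% in rootstocks, and the minor PSII antenna from 12.84% to 13.19% and 10.71%. Per kb of the longest transcript, and as a mean over the 36 libraries, the highest levels were those of LHCB1.3 (12913 CPM per kb), PSBR (5969) and LHCA4 (4345), and the lowest of a counted gene was that of LHCB4.3 (17.19). Across the 36 tested genes the order of the mean CPM, not divided by length, in intact tissue was close to that in scions (Spearman's rho 0.971) and in rootstocks (0.914). These are correlations across genes, which are not independent replicates.

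In scions nearly every gene of both photosystems fell. In each of the 4 genotypes 35 of the 36 tested genes were called lower than in intact tissue and 0 higher, where a call is an adjusted p under 0.05 over all tested loci, and the exception was LHCB4.3. Lower calls made up 25.2% of all tested loci in Col-0, 25.6% in dof quadruple, 21.6% in erf114,115 and 22.9% in anac071,096, and higher calls 29%, 28.7%, 28.7% and 27%. The median log2 change of the 36 genes was -2.27, -2.07, -2.11 and -2.23 in the same order, and that of all tested loci 0.01, -0.01, 0.04 and 0.04. Every scion library lay below every intact library of its genotype for 35, 36, 35 and 35 of the genes. How many of all tested loci did so is not given, so these counts stand without a share to compare. Averaged over the genotypes, the log2 changes of these 35 genes ran from -4.50 for LHCB1.4, 4.42% of its intact level, to -1.81 for PSAD1, 28.5% of it.

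In rootstocks the same genes changed less and less evenly. Called lower than in intact tissue were 14 of 36 in Col-0, 23 in dof quadruple, 21 in erf114,115 and 15 in anac071,096, with 0 called higher. Lower calls made up 17%, 17.4%, 17.9% and 16.4% of all tested loci, and higher calls 22.6%, 22.9%, 26.9% and 21.7%. The median log2 change of the genes was -0.41, -0.54, -0.48 and -0.46, against 0.03, 0.01, 0.08 and 0.05 for all tested loci. All rootstock libraries lay below all intact libraries for 24, 31, 18 and 28 genes, again without a share over all tested loci to compare. Called in all 4 genotypes were 14 genes: LHCA1, LHCA4, LHCB1.1, LHCB1.2, LHCB4.1, LHCB4.2, LHCB4.3, LHCB5, LHCB6, PSAE1, PSAH2, PSAK, PSBP1 and PSBQ1. Called in none were 13: LHCA3, LHCB1.3, LHCB1.4, LHCB2.1, LHCB2.2, PSAG, PSAH1, PSAL, PSAN, PSAO, PSBR, PSBW and PSBX. Of the 14, the calls of LHCA1, LHCB1.1, LHCB1.2, LHCB4.2, LHCB6, PSAH2 and PSBQ1 held in all 4 genotypes whichever library of the groups compared was left out, and those of the other 7 did not hold in every genotype. Such calls numbered 9 of 14 in Col-0, 13 of 23 in dof quadruple, 10 of 21 in erf114,115 and 9 of 15 in anac071,096, and in scions 35 of 35 in each genotype. The counts for rootstocks hung on scaling and on single libraries: with upper-quartile scaling, which put the median of all loci at -0.0824 in Col-0 and -0.0995 in anac071,096, 25 and 29 genes were called there. The shares of all tested loci given above belong to the main fit, and those under the alternatives are not given. In Col-0 9 were called lower without intact replicate 1. In dof quadruple 13 were called lower without intact replicate 1 and 13 without rootstock replicate 2, and in erf114,115 11 without intact replicate 1 and 10 without rootstock replicate 2. Without intact replicate 1 of the genotype 1 gene was called higher in each genotype, LHCB1.4, of which the library left out held the highest intact level.

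Scion and rootstock libraries were also compared with each other. In Col-0, dof quadruple and anac071,096 35 genes were called lower in scions and 1 higher, and in erf114,115 34 lower and 1 higher. Lower calls made up 22.7%, 20.1% and 22.6% of all tested loci in the first 3 and 23.1% in erf114,115, and higher calls 23.5%, 19.7%, 23.3% and 23.6%. The gene that was higher in scions was LHCB4.3 each time, and the one not called in erf114,115 was LHCB1.2. This comparison shares its libraries with those above and adds no separate evidence to them.

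**Figure D2:**
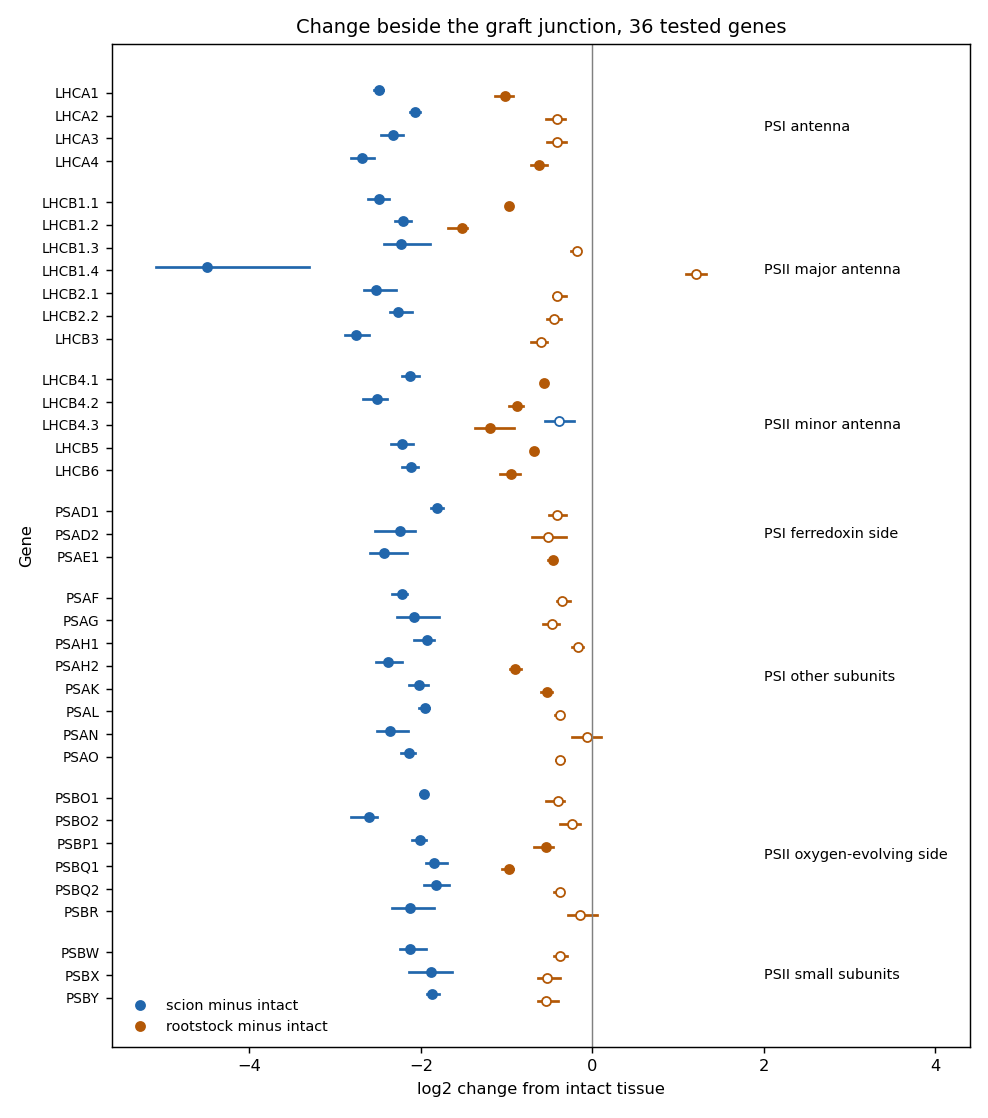
Log2 change from intact tissue of the 36 tested genes, ordered by role; points are means over the 4 genotypes, bars the range of the 4 genotypes, blue scion minus intact and orange rootstock minus intact, and filled points were called in all 4 genotypes. Scion changes lie between -4.50 and -1.81 except that of LHCB4.3 at -0.39, and rootstock changes between -1.52 and -0.06 except that of LHCB1.4 at 1.21.

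The PSI antenna is a belt of LHCA proteins along a side of the PSI core, in which LHCA1 pairs with LHCA4 and LHCA2 with LHCA3. All 4 genes fell in the scions of all genotypes, by mean log2 changes of -2.69 for LHCA4, -2.49 for LHCA1, -2.33 for LHCA3 and -2.07 for LHCA2. In rootstocks LHCA1 fell to 49.3% of its intact level (mean log2 change -1.02) and LHCA4 to 65.0% (-0.62), both in all 4 genotypes, LHCA2 had -0.41, and LHCA3 had -0.41 and was called in none.

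LHCA4 (AT3G47470, chr3:17493343-17495033, minus strand), which carries the chlorophylls of lowest energy in the antenna, had the highest level per kb of the 4. In intact tissue LHCA4 stood at 11082, 8720.4 and 8611 CPM in Col-0, 9349.7, 7442 and 7129 in dof quadruple, 12124, 9095 and 7365 in erf114,115 and 10773, 9149 and 11184 in anac071,096. In scions LHCA4 stood at 1429.7, 1083 and 1508 CPM in Col-0, 1297, 1266 and 1413 in dof quadruple, 1998, 1518 and 1353 in erf114,115 and 1913, 1213 and 1356 in anac071,096. In rootstocks LHCA4 stood at 6846, 5069 and 6120.0 CPM in Col-0, 5370.2, 4179 and 5037 in dof quadruple, 8262, 5529 and 5937 in erf114,115 and 7201, 7087 and 6564 in anac071,096. Every scion library was far below every rootstock library of its genotype, while rootstock and intact libraries lay closer together. The log2 change in scions was -2.82 in Col-0, -2.59 in dof quadruple, -2.55 in erf114,115 and -2.79 in anac071,096 (adjusted p at most 8.63e-11), and in rootstocks -0.66 in Col-0, -0.71 in dof quadruple, -0.54 in erf114,115 and -0.58 in anac071,096 (adjusted p 0.0128, 0.00703, 0.0371 and 0.0285). The rootstock calls of this gene were fragile. In Col-0 the adjusted p was 0.0735 without intact replicate 1 and 0.0719 without rootstock replicate 2. In erf114,115 it was 0.247 and 0.0562 without intact replicates 1 and 2 and 0.124 and 0.127 without rootstock replicates 2 and 3, and in anac071,096 0.0679 and 0.0904 without intact replicates 1 and 3 and 0.0538 to 0.0847 without each rootstock replicate.

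The major PSII antenna, LHCII, is built as trimers of LHCB1, LHCB2 and LHCB3 proteins, and its LHCB1 and LHCB2 subunits are phosphorylated when the antenna moves between the photosystems. Of the 8 genes, 7 were tested, and all 7 fell in the scions of all genotypes (mean log2 changes -4.50 to -2.21). In rootstocks they parted: LHCB1.1 and LHCB1.2 fell in all 4 genotypes, LHCB1.3, LHCB1.4, LHCB2.1 and LHCB2.2 were called in none, and LHCB3 had a mean of -0.60. The LHCB1 genes encode near-identical proteins, so this difference lies between copies for 1 subunit. LHCB1.1 (AT1G29920, chr1:10474656-10475969, minus strand), LHCB1.2 (AT1G29910, chr1:10472280-10473502, minus strand) and LHCB1.3 (AT1G29930, chr1:10477885-10479114, plus strand) are neighbours with 1 exon each, and their coding sequences are 95.65% to 96.39% identical. LHCB1.4 (AT2G34430, chr2:14524607-14525918, plus strand) lies on another chromosome and is 86.83% to 88.2% identical to them. Of the 100-base windows of their transcripts, 1.5% to 4.4% also occur letter for letter in another gene of the family. Windows that match with a few differences were not counted, so how many reads were shared between copies is not known.

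The 250 bases before the start of each of the 4 counted LHCB1 genes are shown because their rootstock levels went apart although their proteins are alike. They are read 5′ to 3′ on the gene's strand from RefSeq's TAIR10.1 sequence, and capitals mark the motifs searched on both strands. These were CACGTG, known as the G-box, and CCAATC, which holds the core of the CAAT box. Added to these were GATAAG, known as the I-box, the motif GCCAC, known as SORLIP1, the hexamer TATCCA, and the evening element AAAATATCT.
LHCB1.1: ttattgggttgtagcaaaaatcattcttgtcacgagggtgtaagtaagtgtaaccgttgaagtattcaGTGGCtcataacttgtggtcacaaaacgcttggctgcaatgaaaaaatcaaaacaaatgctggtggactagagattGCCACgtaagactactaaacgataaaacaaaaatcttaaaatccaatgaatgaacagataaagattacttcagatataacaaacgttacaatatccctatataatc
LHCB1.2: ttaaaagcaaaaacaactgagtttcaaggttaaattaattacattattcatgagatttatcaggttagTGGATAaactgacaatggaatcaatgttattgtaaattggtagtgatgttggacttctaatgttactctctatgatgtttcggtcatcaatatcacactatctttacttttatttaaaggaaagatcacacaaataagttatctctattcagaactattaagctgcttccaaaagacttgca
LHCB1.3: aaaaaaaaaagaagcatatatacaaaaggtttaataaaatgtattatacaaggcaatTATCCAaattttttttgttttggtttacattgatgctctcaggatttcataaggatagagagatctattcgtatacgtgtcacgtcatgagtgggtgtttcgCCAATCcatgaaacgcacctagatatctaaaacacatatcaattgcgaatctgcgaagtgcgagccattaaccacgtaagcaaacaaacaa
LHCB1.4: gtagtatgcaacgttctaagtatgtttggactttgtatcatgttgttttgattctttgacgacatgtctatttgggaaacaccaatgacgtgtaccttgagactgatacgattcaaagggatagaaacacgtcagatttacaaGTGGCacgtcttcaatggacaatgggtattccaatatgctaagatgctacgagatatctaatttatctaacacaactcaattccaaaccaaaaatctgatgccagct
They lie at chr1:10475970-10476219 and chr1:10473503-10473752 on the minus strand and at chr1:10477635-10477884 and chr2:14524357-14524606 on the plus strand. LHCB1.1 holds GCCAC 182 and 106 bases before its start, and LHCB1.4 holds it 107 bases before. LHCB1.2 holds TATCCA 182 bases before, and LHCB1.3 holds it 193 bases before and CCAATC 91 bases before. Aligned in pairs, these upstream stretches were 43.9% to 49.6% identical, far less than the coding sequences. A match of letters is a description and not a shown site.

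LHCB1.3 had the highest level per kb of all the genes, and its scion libraries stood apart from the rest. In intact tissue LHCB1.3 stood at 34045, 16333 and 20194 CPM in Col-0, 26333, 13302 and 15315 in dof quadruple, 36422, 18513 and 17514 in erf114,115 and 27818, 23508 and 23717 in anac071,096. In scions LHCB1.3 stood at 4481, 3460.3 and 5128 CPM in Col-0, 4789, 4660.2 and 5275 in dof quadruple, 6638, 3542 and 4439 in erf114,115 and 6776, 4441 and 4043 in anac071,096. In rootstocks LHCB1.3 stood at 23607, 15181 and 20399.7 CPM in Col-0, 20321, 11905 and 17091 in dof quadruple, 31410.3, 13968 and 19972 in erf114,115 and 25518, 20960.5 and 20767 in anac071,096. All scion libraries lay below all intact and rootstock libraries, and rootstock libraries lay within or close to the intact range of their genotype. The log2 change was -2.43 in Col-0, -1.90 in dof quadruple, -2.31 in erf114,115 and -2.30 in anac071,096 in scions (adjusted p at most 2.04e-05) and -0.25 in Col-0, -0.16 in dof quadruple, -0.15 in erf114,115 and -0.16 in anac071,096 in rootstocks (adjusted p 0.57, 0.738, 0.74 and 0.752). LHCB1.3 made up a median of 15.42% of the members' counts in intact tissue, 16.45% in the scions and 19.03% in the rootstocks.

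LHCB1.2 was low on both sides of the junction. In intact tissue LHCB1.2 stood at 8569, 5566 and 5490.0 CPM in Col-0, 7770.0, 5401 and 5473 in dof quadruple, 8812, 5612 and 5817 in erf114,115 and 7161, 7265 and 7183 in anac071,096. In scions LHCB1.2 stood at 1563, 1102 and 1327 CPM in Col-0, 1549, 1312 and 1442 in dof quadruple, 2054, 1241 and 1374 in erf114,115 and 1930.0, 1201 and 1233 in anac071,096. In rootstocks LHCB1.2 stood at 2614, 2023 and 2475 CPM in Col-0, 2301, 2031 and 2416 in dof quadruple, 2655, 1509 and 2142 in erf114,115 and 2263, 2316 and 3181 in anac071,096. Every rootstock library lay below every intact library of its genotype, and scion and rootstock libraries overlapped in erf114,115 alone. For LHCB1.2 the rootstock change was -1.46 in Col-0, -1.47 in dof quadruple, -1.68 in erf114,115 and -1.48 in anac071,096 (adjusted p at most 1.83e-05), the strongest fall of any of the genes there in each genotype, and the scion change -2.30 in Col-0, -2.12 in dof quadruple, -2.12 in erf114,115 and -2.31 in anac071,096. Scion minus rootstock was -0.83 in Col-0, -0.65 in dof quadruple, -0.43 in erf114,115 and -0.83 in anac071,096 (adjusted p 0.00603, 0.0335, 0.144 and 0.0062). In dof quadruple that adjusted p was 0.0518 to 0.109 without each scion replicate, 0.0732 without rootstock replicate 1 and 0.0924 without rootstock replicate 3, and 0.0734 with upper-quartile scaling. In erf114,115 it was 0.0317 without scion replicate 1 and 0.0469 without rootstock replicate 2.

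LHCB1.4 had the largest scion change of the genes in every genotype, and its rootstock means were the highest against intact tissue. In intact tissue LHCB1.4 stood at 2566, 1006 and 825 CPM in Col-0, 2144, 601 and 612 in dof quadruple, 3434, 1629 and 845 in erf114,115 and 3065, 1217 and 1418 in anac071,096. In scions LHCB1.4 stood at 38.8, 24.5 and 65.6 CPM in Col-0, 124, 74.6 and 142 in dof quadruple, 101, 55.3 and 55.4 in erf114,115 and 106, 46.7 and 50.8 in anac071,096. In rootstocks LHCB1.4 stood at 5302, 2381 and 2734 CPM in Col-0, 3691, 1852 and 2877 in dof quadruple, 6744, 3211 and 2667 in erf114,115 and 6470.3, 2656 and 3694 in anac071,096. Replicate 1 was the highest of its group in 10 of 12 groups, and in intact tissue it lay far above the other replicates of every genotype. For LHCB1.4 the scion change was -5.09 in Col-0, -3.30 in dof quadruple, -4.80 in erf114,115 and -4.81 in anac071,096 (adjusted p 1.74e-07, 3.76e-05, 4.22e-07 and 4.12e-07), with all scion libraries below all intact ones. For LHCB1.4 the rootstock change was 1.24 in Col-0, 1.33 in dof quadruple, 1.1 in erf114,115 and 1.17 in anac071,096 (adjusted p 0.0812, 0.0619, 0.116 and 0.105), and no genotype passed. Rootstock and intact libraries overlapped in every genotype. Without intact replicate 1 of the genotype the rootstock change passed in all 4: 1.92 in Col-0 (adjusted p 0.0205), 2.21 in dof quadruple (0.00683), 1.77 in erf114,115 (0.028) and 1.70 in anac071,096 (0.0422). That drops the highest intact library of each genotype and keeps rootstock replicate 1, the highest rootstock library. The larger change therefore follows in part from that choice. Scion minus rootstock was -6.34 in Col-0, -4.63 in dof quadruple, -5.90 in erf114,115 and -5.98 in anac071,096 (adjusted p at most 1.65e-06).

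Set against LHCB1.3 in the same library, which needs no scaling, the rootstock ranges of LHCB1.1, LHCB1.2 and LHCB1.4 did not overlap the intact ones, and of the scion ranges that of LHCB1.4 alone did not. These ratios were chosen after their values were seen and carry no test. The median count of LHCB1.2 per count of LHCB1.3 was 0.303 in intact tissue (range 0.2419 to 0.4061, n = 12), 0.3073 in scions (0.2588 to 0.3505) and 0.112 in rootstocks (0.08453 to 0.1706). For LHCB1.1 it was 0.3685 (0.2567 to 0.4543), 0.2821 (0.2332 to 0.3739) and 0.2057 (0.139 to 0.2507). For LHCB1.4 it was 0.06068 (0.03999 to 0.1102), 0.01402 (0.007092 to 0.02691) and 0.1731 (0.1267 to 0.2536), with no overlap between the tissues.

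**Figure D3:**
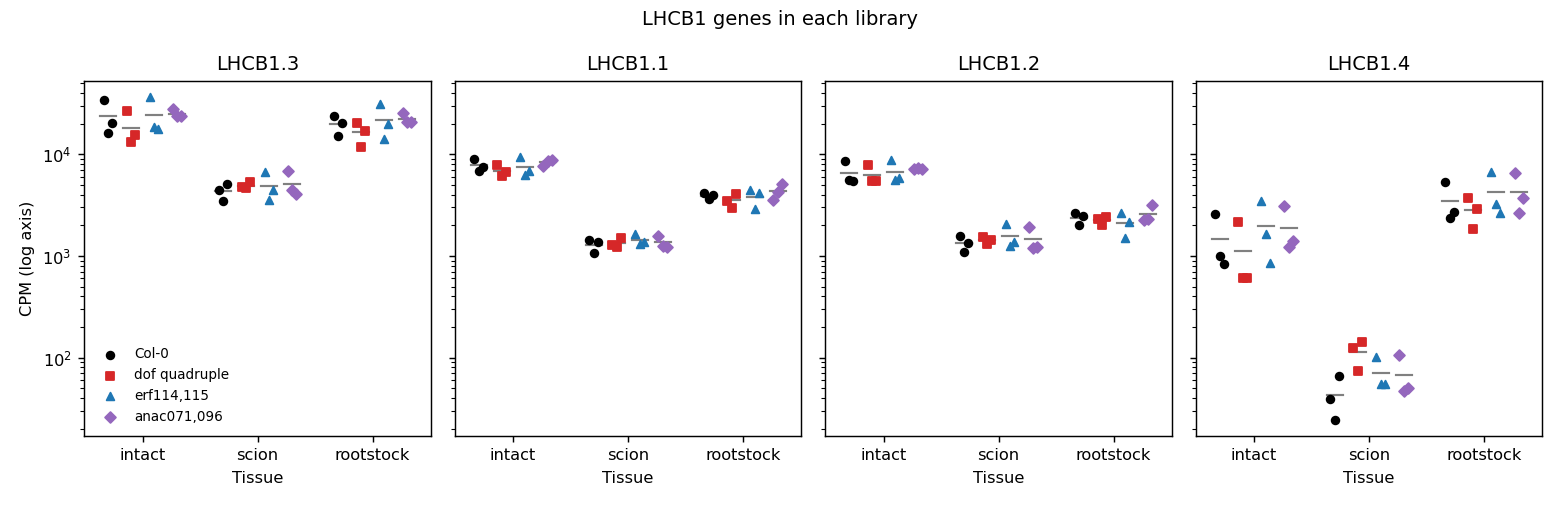
Level of the 4 counted LHCB1 genes in each library, in CPM on a log axis, by tissue and genotype; each point is a library and grey lines are group means (n = 3). LHCB1.4 stands at 24.5 to 142 CPM in scions and at 1852 CPM or more in every rootstock library, whereas LHCB1.1 and LHCB1.2 are lower in rootstocks than in intact tissue.

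LHCB1.5 (AT2G34420, chr2:14522524-14523568, minus strand) is the gene that the filter removed, since it was at 0 counts in all 36 libraries. Its single exon is overlapped along its whole length by other loci, AT2G34410 and AT2G08665, a long non-coding RNA on the opposite strand (chr2:14522522-14523568), which was also at 0 in all libraries. Among protein-coding loci whose longest transcript is wholly overlapped, 354 of 373 (94.9%) were at 0 in all libraries, against 539 of 6876 (7.8%) of those partly overlapped and 1555 of 20195 (7.7%) of those not overlapped. The 0 of LHCB1.5 is therefore given as listed and not as a level. In all, 14 of the 37 genes overlap another locus, of which 6 do so over more than 20% of their exon bases: LHCB1.5, PSAG (61.4%), PSAH1 (53.3%), PSAE1 (34.1%), PSAH2 (24.8%) and LHCB6 (20.4%). The strand setting used for counting is not given in the sources used here, so the levels of these genes are uncertain.

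LHCB3 (AT5G54270, chr5:22038165-22039568, plus strand), which unlike its relatives is not phosphorylated, had the largest scion fall after LHCB1.4 in each genotype. In intact tissue LHCB3 stood at 10033, 6586 and 6327 CPM in Col-0, 8387, 5895 and 5853 in dof quadruple, 10727, 7021 and 6108 in erf114,115 and 9153, 7895 and 7598 in anac071,096. In scions LHCB3 stood at 1097, 855 and 1146 CPM in Col-0, 983, 944 and 1114 in dof quadruple, 1594, 1133 and 1205 in erf114,115 and 1453, 1036 and 995 in anac071,096. In rootstocks LHCB3 stood at 6168, 4311 and 5043 CPM in Col-0, 4446, 3353 and 4488 in dof quadruple, 7099, 4102 and 4513 in erf114,115 and 6015, 5689 and 5370.1 in anac071,096. Scion libraries were all far below the others, and rootstock libraries lay below the intact ones of their genotype except in erf114,115, where they overlapped. Its log2 change in scions was -2.89 in Col-0, -2.73 in dof quadruple, -2.60 in erf114,115 and -2.82 in anac071,096 (adjusted p at most 7.15e-10), and the rootstock change -0.56 in Col-0, -0.71 in dof quadruple, -0.60 in erf114,115 and -0.53 in anac071,096 (adjusted p 0.0584, 0.017, 0.0387 and 0.0787). In dof quadruple the adjusted p was 0.113 without intact replicate 1 and 0.0876 without rootstock replicate 2, in erf114,115 0.299 without intact replicate 1 and 0.144 without either of rootstock replicates 2 and 3, and in Col-0 0.0417 without intact replicate 3 and 0.0422 without rootstock replicate 1.

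LHCB2.1 and LHCB2.2, both on chromosome 2 and both for the LHCB2 subunit, fell in scions by mean log2 changes of -2.52 and -2.27 and had -0.41 and -0.45 in rootstocks. LHCB2.1 (AT2G05100, chr2:1822990-1824480, minus strand) stood at 5974, 4228 and 5454 CPM in intact Col-0 tissue and 861, 655 and 952 in Col-0 scions. In erf114,115 it stood at 6060.0, 4167 and 4341 CPM in intact tissue and 1234, 829 and 916 in scions. The scion change was -2.66 in Col-0 and -2.29 in erf114,115, and the difference of these changes was 0.37 ± 0.31 (adjusted p = 1), which did not pass. Of their 100-base windows 9.9% and 12.4% are shared, so reads of the pair could partly be exchanged.

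The minor PSII antenna, the monomeric proteins LHCB4 (CP29), LHCB5 (CP26) and LHCB6 (CP24), links LHCII to the PSII core. It was the role class in which all genes, 5 of 5, fell in the rootstocks of all 4 genotypes, by mean log2 changes from -1.20 for LHCB4.3 to -0.56 for LHCB4.1. In scions LHCB4.1, LHCB4.2, LHCB5 and LHCB6 fell, by -2.51 for LHCB4.2 to -2.12 for LHCB6, and LHCB4.3 was not called.

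LHCB5 (AT4G10340, chr4:6408007-6409849, plus strand) had the highest level per kb of the class. In intact tissue LHCB5 stood at 6909, 4745 and 5426 CPM in Col-0, 5784, 4415 and 4376 in dof quadruple, 7202, 5215 and 4672 in erf114,115 and 6009.9, 5898 and 7011 in anac071,096. In scions LHCB5 stood at 1168, 965 and 1299 CPM in Col-0, 1059, 1129 and 1223 in dof quadruple, 1657, 1094 and 1164 in erf114,115 and 1509.5, 1120.1 and 1089.7 in anac071,096. In rootstocks LHCB5 stood at 3666, 2938 and 3892 CPM in Col-0, 3109.9, 2592 and 3566 in dof quadruple, 4364, 2664 and 3711 in erf114,115 and 3547, 4018 and 3918 in anac071,096. Over all 36 libraries the 3 tissues did not overlap, with scions lowest and intact tissue highest. For LHCB5 the scion change was -2.31 in Col-0, -2.10 in dof quadruple, -2.13 in erf114,115 and -2.35 in anac071,096 (adjusted p at most 3.16e-09), and the rootstock change -0.70 in Col-0, -0.65 in dof quadruple, -0.67 in erf114,115 and -0.72 in anac071,096 (adjusted p 0.00821, 0.0137, 0.0102 and 0.00689). The rootstock call was lost without intact replicate 1 in Col-0 (adjusted p 0.0653), dof quadruple (0.083) and erf114,115 (0.0937), and without rootstock replicate 2 in the same genotypes (0.0528, 0.0751 and 0.0633).

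LHCB6 (AT1G15820, chr1:5446462-5447880, minus strand) fell to a mean of 23.0% of its intact level in scions and 51.7% in rootstocks. In intact tissue LHCB6 stood at 4094, 3668 and 4002 CPM in Col-0, 3739, 3243 and 3718 in dof quadruple, 4358, 3801 and 3867 in erf114,115 and 3680.2, 4544 and 5052 in anac071,096. In scions LHCB6 stood at 1154, 750.2 and 929.9 CPM in Col-0, 858, 797 and 946 in dof quadruple, 1041, 793 and 843 in erf114,115 and 1141, 845 and 862 in anac071,096. In rootstocks LHCB6 stood at 2146, 1939 and 2165 CPM in Col-0, 1887, 1824 and 2266 in dof quadruple, 2249, 1569 and 1871 in erf114,115 and 1926, 2136 and 2706 in anac071,096. Here too the 3 tissues did not overlap over the 36 libraries, with scions lowest. For LHCB6 the rootstock change was -0.91 in Col-0, -0.84 in dof quadruple, -1.08 in erf114,115 and -0.97 in anac071,096 (adjusted p at most 0.000367).

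LHCB4.3 (AT2G40100, chr2:16745628-16747424, plus strand), a form of CP29 with low expression in unstressed plants, was the exception among the 36 tested genes: its level held in scions better than that of any other and was lowest in rootstocks. In intact tissue LHCB4.3 stood at 33.0, 24.6 and 45.5 CPM in Col-0, 31.5, 30.6 and 36.2 in dof quadruple, 26.4, 21.7 and 41.0 in erf114,115 and 18.5, 36.4 and 27.1 in anac071,096. In scions LHCB4.3 stood at 21.8, 26.3 and 27.6 CPM in Col-0, 20.0, 22.7 and 24.2 in dof quadruple, 22.9, 21.3 and 26.0 in erf114,115 and 21.4, 26.1 and 23.0 in anac071,096. In rootstocks LHCB4.3 stood at 10.6, 13.2 and 16.1 CPM in Col-0, 11.03, 14.0 and 14.8 in dof quadruple, 11.9, 10.3 and 16.4 in erf114,115 and 10.9, 17.8 and 14.6 in anac071,096. Scion and intact libraries overlapped in Col-0, erf114,115 and anac071,096, and every rootstock library was below every scion library of its genotype. For LHCB4.3 the scion change was -0.45 in Col-0, -0.55 in dof quadruple, -0.34 in erf114,115 and -0.21 in anac071,096 (adjusted p 0.121, 0.0541, 0.246 and 0.49), the rootstock change -1.37 in Col-0, -1.30 in dof quadruple, -1.21 in erf114,115 and -0.92 in anac071,096 (adjusted p 4.43e-05, 9.4e-05, 0.000181 and 0.00341), and scion minus rootstock 0.92 in Col-0, 0.75 in dof quadruple, 0.87 in erf114,115 and 0.70 in anac071,096 (adjusted p 0.00295, 0.016, 0.00484 and 0.0197). The scion change of Col-0 passed without intact replicate 2 (-0.64, adjusted p 0.0394), and that of dof quadruple with RLE size factors (0.0411), with DESeq2 (0.0386), with no count filter (0.0222) and with only its own groups in the fit (0.00312). Scion minus rootstock no longer passed in dof quadruple without scion replicate 3 (adjusted p 0.0526) or rootstock replicate 1 (0.0822), nor in anac071,096 without scion replicate 2 (0.0715) or rootstock replicate 1 (0.119). The rootstock change of anac071,096 did not pass without intact replicate 2 (0.0512).

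On the stromal side of PSI, PSAD and PSAE proteins hold ferredoxin, which takes up the electron. PSAD1, PSAD2 and PSAE1 fell in the scions of all 4 genotypes, by means of -1.81, -2.25 and -2.43. In rootstocks PSAE1 fell in all 4 (mean -0.47), and PSAD1 and PSAD2 had means of -0.42 and -0.52. PSAD1 (AT4G02770, chr4:1229031-1230164, minus strand), the higher of the PSAD genes per kb, was the gene with the smallest mean scion fall after LHCB4.3.
In intact tissue PSAD1 stood at 2871, 2386 and 2186 CPM in Col-0, 3009.7, 2419 and 2384 in dof quadruple, 3256, 2287 and 2619 in erf114,115 and 2916, 2953 and 2222 in anac071,096. In scions PSAD1 stood at 722, 653 and 709.7 CPM in Col-0, 720.4, 664 and 729 in dof quadruple, 921, 656 and 802 in erf114,115 and 1055, 682 and 675 in anac071,096. In rootstocks PSAD1 stood at 2194, 1991 and 1829.7 CPM in Col-0, 1876, 1699 and 1920.2 in dof quadruple, 2490.5, 1596 and 1686 in erf114,115 and 2192, 1817 and 2329.9 in anac071,096. Scion libraries of PSAD1 lay below all others, and rootstock and intact libraries overlapped except in dof quadruple. Its rootstock change was -0.31 in Col-0, -0.51 in dof quadruple, -0.50 in erf114,115 and -0.35 in anac071,096 (adjusted p 0.217, 0.0365, 0.0357 and 0.159). The adjusted p in dof quadruple was 0.0595 to 0.154 without intact replicate 1 or each rootstock replicate, and in erf114,115 0.0556 to 0.184 without intact replicates 1 or 3 or rootstock replicates 2 or 3.

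PSAD2 (AT1G03130, chr1:753307-754262, minus strand) varied more between genotypes than PSAD1. In intact tissue PSAD2 stood at 1300.5, 1319.8 and 981 CPM in Col-0, 1408, 1187 and 1205 in dof quadruple, 1789, 1278 and 1510.0 in erf114,115 and 1606, 1583 and 992 in anac071,096. In scions PSAD2 stood at 313, 245 and 283 CPM in Col-0, 219, 192 and 242 in dof quadruple, 330.3, 297 and 309 in erf114,115 and 453, 252 and 289 in anac071,096. In rootstocks PSAD2 stood at 1137, 972 and 800.0 CPM in Col-0, 836, 709 and 789 in dof quadruple, 1369, 854 and 685 in erf114,115 and 1241, 761 and 1127 in anac071,096. The scion libraries of dof quadruple lay below those of erf114,115, and intact libraries of all genotypes overlapped. Its log2 change in scions was -2.10 in Col-0, -2.54 in dof quadruple, -2.29 in erf114,115 and -2.07 in anac071,096. The change of dof quadruple minus that of Col-0 was -0.44 ± 0.34 (adjusted p = 0.929) in scions and -0.40 ± 0.34 (adjusted p = 0.969) in rootstocks, and that of erf114,115 minus Col-0 was -0.19 ± 0.34 (adjusted p = 1) and -0.35 ± 0.34 (adjusted p = 0.94), and none of these passed. Its own rootstock change passed in dof quadruple (-0.70 ± 0.24, adjusted p = 0.0187) and erf114,115 (-0.65 ± 0.24, adjusted p = 0.0255), but without intact replicate 1 or rootstock replicate 2 the adjusted p was 0.0665 and 0.0681 in dof quadruple and 0.108 and 0.0753 in erf114,115, where it was 0.166 without rootstock replicate 3.

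Of the other PSI subunits, PSAF docks plastocyanin, PSAN lies in the lumen beside it, PSAG and PSAK sit towards the antenna, and PSAH, PSAL and PSAO form the side where mobile LHCII binds. All 8 genes fell in all scions, with means from -2.38 for PSAH2 to -1.93 for PSAH1. In rootstocks PSAH2 and PSAK fell in all 4 genotypes (means -0.90 and -0.52), PSAF had a mean of -0.35, and the other 5 were called in none.

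PSAO (AT1G08380, chr1:2640803-2641934, minus strand) had the highest level per kb among them. In intact tissue PSAO stood at 3151, 2636 and 2416 CPM in Col-0, 2759, 2436 and 2167 in dof quadruple, 3291, 2672 and 2424 in erf114,115 and 2879, 2819 and 3213 in anac071,096. In scions PSAO stood at 599.8, 501 and 637 CPM in Col-0, 536, 601 and 606 in dof quadruple, 834, 571 and 594 in erf114,115 and 824, 567 and 555 in anac071,096. In rootstocks PSAO stood at 2334, 1831 and 2053 CPM in Col-0, 1891, 1710.4 and 1866 in dof quadruple, 2766, 1764 and 2141 in erf114,115 and 2377, 2342 and 2302 in anac071,096. Scion libraries were again apart from the rest. For PSAO the scion change was -2.24 in Col-0, -2.08 in dof quadruple, -2.07 in erf114,115 and -2.19 in anac071,096 (adjusted p at most 3.17e-10), and the rootstock change -0.40 in Col-0, -0.43 in dof quadruple, -0.33 in erf114,115 and -0.34 in anac071,096 (adjusted p 0.0846, 0.0625, 0.147 and 0.147). With upper-quartile scaling it passed in rootstocks of all 4 genotypes, at adjusted p 0.0237 to 0.0291, with DESeq2 in Col-0 (0.0452) and dof quadruple (0.0316), and in erf114,115 also without rootstock replicate 1 (0.0407).

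PSAN (AT5G64040, chr5:25628521-25629708, minus strand) was on average the nearest to its intact level in rootstocks, and it fell in scions. In intact tissue PSAN stood at 2349, 1701 and 2043 CPM in Col-0, 1977, 1679 and 1720.0 in dof quadruple, 2212, 1858 and 1811 in erf114,115 and 1929.6, 2331 and 2289.9 in anac071,096. In scions PSAN stood at 335, 314 and 416 CPM in Col-0, 356, 394 and 457 in dof quadruple, 477, 355 and 385 in erf114,115 and 436, 396 and 339 in anac071,096. In rootstocks PSAN stood at 1799, 1691 and 2271 CPM in Col-0, 1511, 1335 and 1728 in dof quadruple, 2247, 1659.5 and 2411 in erf114,115 and 1834, 2536 and 1993 in anac071,096. Rootstock and intact libraries overlapped in all genotypes. For PSAN the scion change was -2.52 in Col-0, -2.16 in dof quadruple, -2.27 in erf114,115 and -2.48 in anac071,096 (adjusted p at most 1.36e-10), and the rootstock change -0.08 in Col-0, -0.23 in dof quadruple, 0.10 in erf114,115 and -0.04 in anac071,096 (adjusted p 0.758, 0.322, 0.674 and 0.89). Scion minus rootstock was -2.43 in Col-0, -1.92 in dof quadruple, -2.38 in erf114,115 and -2.44 in anac071,096.

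PSAG (AT1G55670, chr1:20802670-20803449, minus strand) stood at 498, 297 and 372 CPM in intact Col-0 tissue, 72.6, 85.2 and 96.7 in Col-0 scions and 286, 245 and 351 in Col-0 rootstocks. It stood at 94.7, 109 and 103 CPM in dof quadruple scions, and in anac071,096 at 429, 534 and 415 in intact tissue and 269, 333 and 325 in rootstocks. PSAH1 (AT3G16140, chr3:5467987-5469594, minus strand) stood at 459, 503 and 513 CPM in Col-0 rootstocks and 472, 506 and 473 in those of anac071,096. For both genes the mutant libraries overlapped those of Col-0 in these tissues, and no genotype comparison passed.

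The upstream stretch of PSAH2 (AT1G52230, chr1:19454798-19455668, plus strand) is shown because this gene, and not its partner PSAH1 for the same subunit, fell in the rootstocks of all 4 genotypes. PSBQ1 (AT4G21280, chr4:11334352-11335815, plus strand) of the oxygen-evolving side is shown because it fell in all 4 while PSBQ2, for the same subunit, did not. The 250 bases before each start are given as above, with the same motifs in capitals.
PSAH2: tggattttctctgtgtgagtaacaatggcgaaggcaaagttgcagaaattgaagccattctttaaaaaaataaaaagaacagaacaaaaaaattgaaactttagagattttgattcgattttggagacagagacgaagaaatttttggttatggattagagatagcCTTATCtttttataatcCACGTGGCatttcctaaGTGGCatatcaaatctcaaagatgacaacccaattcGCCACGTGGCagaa
PSBQ1: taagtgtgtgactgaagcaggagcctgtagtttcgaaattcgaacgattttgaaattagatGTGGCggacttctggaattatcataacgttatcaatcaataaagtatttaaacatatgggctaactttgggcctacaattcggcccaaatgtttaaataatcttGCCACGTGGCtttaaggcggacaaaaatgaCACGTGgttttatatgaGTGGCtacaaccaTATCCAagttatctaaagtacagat
They lie at chr1:19454548-19454797 and chr4:11334102-11334351, both on the plus strand. Each holds the G-box CACGTG at 2 places, 67 and 12 bases before the start in PSAH2 and 83 and 55 bases before it in PSBQ1, and GCCAC, which can overlap the G-box, at 4 places. PSAH2 also holds the I-box 84 bases before its start, and PSBQ1 holds TATCCA 25 bases before.

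The oxygen-evolving side of PSII is formed by lumenal proteins: PSBO stabilises the manganese cluster, PSBP and PSBQ help it to keep calcium and chloride, and PSBR helps PSBP to bind. All 6 genes fell in all scions, by means of -2.61 for PSBO2 to -1.83 for PSBQ2. In rootstocks PSBP1 and PSBQ1 fell in all 4 genotypes (means -0.54 and -0.98), PSBR was called in none (-0.15), and PSBO1, PSBO2 and PSBQ2 had means of -0.40, -0.24 and -0.38.

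PSBR (AT1G79040, chr1:29735952-29737009, plus strand) had the highest level per kb of the class. In intact tissue PSBR stood at 8087, 5747 and 7627 CPM in Col-0, 6239, 5096 and 5200.4 in dof quadruple, 7714, 5878 and 5559.8 in erf114,115 and 6499.6, 7578 and 7754 in anac071,096. In scions PSBR stood at 1264, 1319.6 and 1679 CPM in Col-0, 1424, 1601 and 1586 in dof quadruple, 1979.5, 1228 and 1325 in erf114,115 and 1843, 1515 and 1273 in anac071,096. In rootstocks PSBR stood at 5615, 4978 and 6958 CPM in Col-0, 5007, 4034 and 5085 in dof quadruple, 7378, 4993 and 7515 in erf114,115 and 6003, 7844 and 6050.2 in anac071,096. Rootstock and intact libraries overlapped except in dof quadruple, where all rootstock libraries were lower, and scion libraries lay below both. For PSBR the scion change was -2.33 in Col-0, -1.84 in dof quadruple, -2.08 in erf114,115 and -2.24 in anac071,096 (adjusted p at most 2.35e-08), and the rootstock change -0.29 in Col-0, -0.23 in dof quadruple, 0.05 in erf114,115 and -0.13 in anac071,096 (adjusted p 0.283, 0.403, 0.854 and 0.664).

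PSBO2 (AT3G50820, chr3:18890874-18892508, minus strand), the lower of the PSBO genes per kb, had the largest scion fall of its class. In intact tissue PSBO2 stood at 1185, 1219 and 1022 CPM in Col-0, 1175, 1141 and 1031 in dof quadruple, 1179.8, 1235 and 1298 in erf114,115 and 1016, 1271 and 1129 in anac071,096. In scions PSBO2 stood at 145, 146 and 197 CPM in Col-0, 149, 182 and 218 in dof quadruple, 219, 203 and 229 in erf114,115 and 234, 182 and 183 in anac071,096. In rootstocks PSBO2 stood at 1007, 959 and 998 CPM in Col-0, 820.0, 823 and 930.5 in dof quadruple, 1156, 965 and 1058 in erf114,115 and 963, 1066 and 1068 in anac071,096. Replicates 1 and 2 of the Col-0 scions were the lowest libraries, and the erf114,115 scions all lay above those of Col-0. For PSBO2 the scion change was -2.81 in Col-0, -2.61 in dof quadruple, -2.51 in erf114,115 and -2.51 in anac071,096 (adjusted p at most 2.21e-13), and scion minus rootstock -2.60 in Col-0, -2.23 in dof quadruple, -2.29 in erf114,115 and -2.37 in anac071,096. Scions of erf114,115 exceeded those of Col-0 by 0.42 ± 0.15 (adjusted p = 0.258), which did not pass.

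The small membrane subunits of PSII, PSBW, PSBX and PSBY, fell in all scions, by means of -2.12, -1.89 and -1.87. PSBX (AT2G06520, chr2:2587729-2588448, minus strand) had the highest level per kb of the class. In intact tissue PSBX stood at 2389, 1542 and 2074 CPM in Col-0, 2003, 1349.5 and 1423 in dof quadruple, 2229, 1389.6 and 1729 in erf114,115 and 1825, 2569 and 2299.5 in anac071,096. In scions PSBX stood at 472, 443 and 541 CPM in Col-0, 481, 550.3 and 499.8 in dof quadruple, 727, 353 and 533 in erf114,115 and 604, 525 and 390.4 in anac071,096. In rootstocks PSBX stood at 1347, 1063 and 1539 CPM in Col-0, 1143, 952 and 1315 in dof quadruple, 1582, 801 and 1745 in erf114,115 and 1208, 1694 and 1406 in anac071,096. Its scion libraries lay below all others, and its intact libraries spread widely. Its log2 change in scions was -2.05 in Col-0, -1.64 in dof quadruple, -1.73 in erf114,115 and -2.14 in anac071,096 (adjusted p at most 6.89e-06), and the rootstock change -0.61 in Col-0, -0.49 in dof quadruple, -0.37 in erf114,115 and -0.64 in anac071,096 (adjusted p 0.0683, 0.145, 0.258 and 0.0568), which passed without Col-0 intact replicate 2 (0.0384), without anac071,096 intact replicate 1 (0.0395) and without anac071,096 rootstock replicate 2 (0.0479). PSBY (AT1G67740, chr1:25394031-25395249, minus strand) stood in intact tissue at 1422, 1129 and 1244 CPM in Col-0, 1380.0, 1097 and 1186 in dof quadruple and 1259.8, 1728 and 1226 in anac071,096 and in rootstocks at 941, 942 and 987 CPM in Col-0, 714, 744 and 899 in dof quadruple and 787, 1007 and 1061 in anac071,096. All rootstock libraries of PSBY lay below all of its intact libraries. The rootstock change of PSBY minus that in Col-0 was -0.23 ± 0.24 (adjusted p = 0.985) in dof quadruple and -0.16 ± 0.24 (adjusted p = 1) in anac071,096, and neither passed.

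Several subunits are encoded by pairs of genes, and the ratio of the pair within a library needs no scaling. Of 7 pairs compared in 2 tissues, 12 of 14 ratios differed from intact tissue at an adjusted p under 0.05 (exact permutation test of libraries within genotypes, two-sided, Benjamini-Hochberg over the 14). How often the ratio of unrelated genes differed is not given, so this count stands without a share to compare. The smallest p the test allows is 1.25e-05. The ratio of PSAH1 to PSAH2 had medians of 0.634 in intact tissue, 0.865 in the scions and 1.03 in the rootstocks, log2 differences of 0.45 and 0.74 (adjusted p 1.94e-05 for both), so that in the median rootstock library the counts of the genes were about level. PSBQ1 to PSBQ2 had 0.738, 0.711 and 0.459, with a rootstock difference of -0.61 (adjusted p 1.94e-05) and a scion difference of -0.02 (0.756). PSBO1 to PSBO2 went up in scions, from 3.58 to 5.72 (difference 0.65, adjusted p 1.94e-05), and down in rootstocks, to 3.34 (-0.16, adjusted p 0.00186). PSAD1 to PSAD2 went from 1.92 to 2.63 in scions (0.44, adjusted p 1.94e-05) and 2.15 in rootstocks (0.12, adjusted p 0.0717). LHCB4.1 to LHCB4.2 went from 0.796 to 1.08 and 0.99 (0.39 and 0.32, adjusted p 1.94e-05 for both). LHCB4.3 to LHCB4.1 went from 0.0075 to 0.0274 in scions (1.77, adjusted p 1.94e-05) and 0.00533 in rootstocks (-0.62, adjusted p 0.00141). LHCB2.1 to LHCB2.2 went from 1.08 to 0.91 (-0.25, adjusted p 1.94e-05) and 1.12 (0.05, adjusted p 0.0363). All differences had the same sign in the 4 genotypes except that of PSBQ1 to PSBQ2 in scions. Scion and rootstock were set against the same intact libraries.

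**Figure D4:**
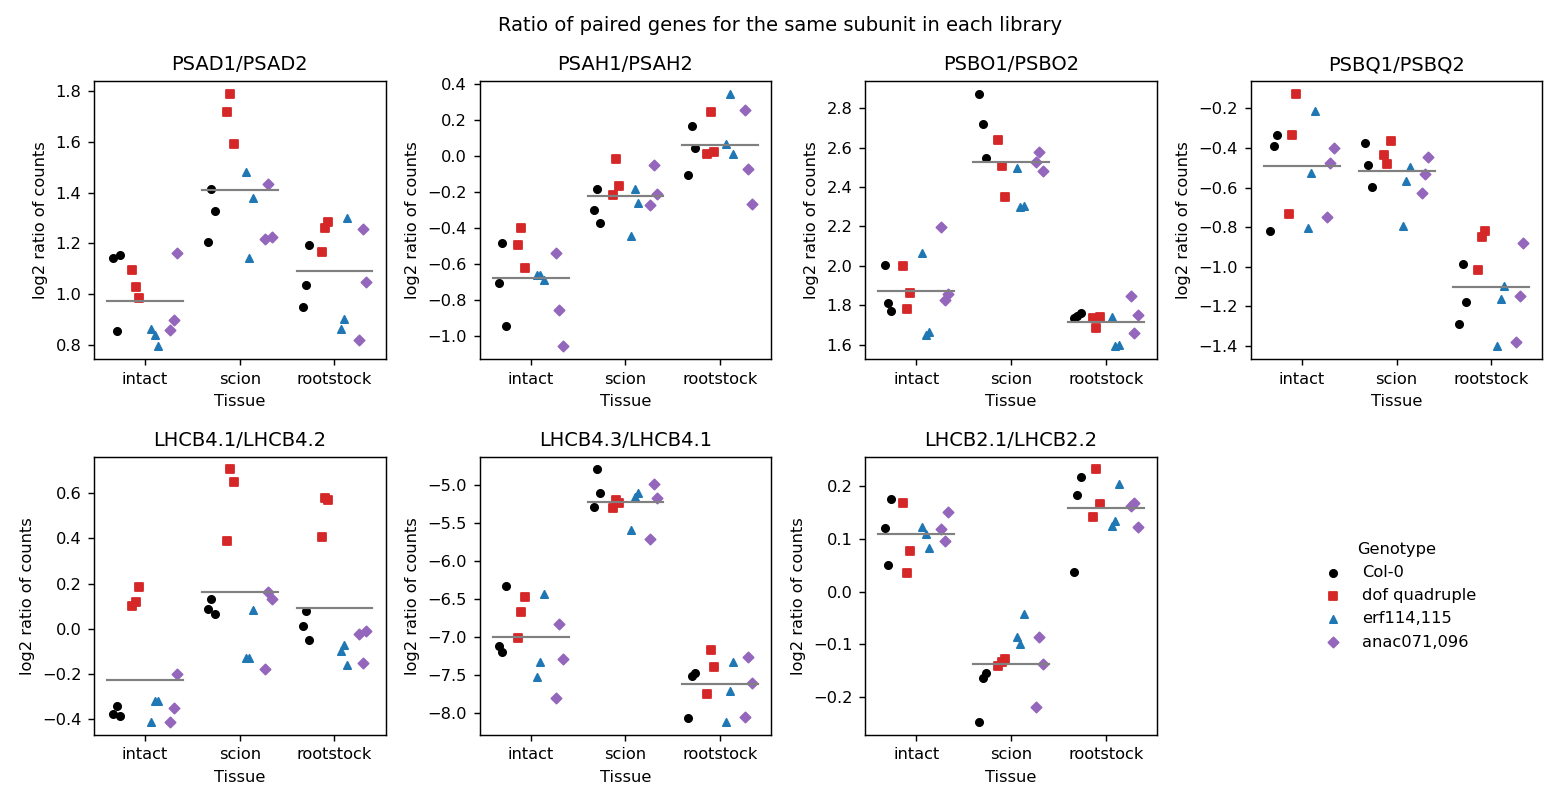
Log2 ratio of the counts of 2 genes for the same subunit in each library, for 7 pairs, by tissue and genotype; each point is a library and grey lines are means of 12 libraries. PSAH1/PSAH2 is higher in rootstocks than in intact tissue and PSBQ1/PSBQ2 lower, LHCB4.3/LHCB4.1 is highest in scions, and the dof quadruple points lie above the others for LHCB4.1/LHCB4.2.

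The mutants were compared with Col-0 within each tissue, which are named after DOF, ERF and ANAC transcription factor genes. A single one of the 36 tested genes passed in 1 of 9 comparisons: LHCB4.2 was lower in dof quadruple rootstocks. In dof quadruple 0 of 36 passed in intact tissue and 0 in scions, where 4.59% and 1.5% of all tested loci passed in either direction, and 1 in rootstocks, where 3.73% passed. In erf114,115 0 passed in each tissue, against 0.0308%, 0.893% and 0.38% of all loci, and in anac071,096 0 in each, against 0.0411%, 0.385% and 0.863%. At an unadjusted p under 0.05 there were 1, 2 and 1 in intact, scion and rootstock dof quadruple tissue, 1 in erf114,115 scions and 0 in the other 5 comparisons. DESeq2 called 1 in intact and 1 in rootstock dof quadruple tissue and 0 elsewhere. The median log2 difference of the genes was -0.16, 0.04 and -0.23 in dof quadruple, 0.04, 0.19 and 0.01 in erf114,115 and 0.10, 0.15 and 0.12 in anac071,096, in intact tissue, scions and rootstocks. In dof quadruple rootstocks 9 of the 36 genes had all libraries below those of Col-0. The share of all tested loci that did so is not given, and nothing is concluded from this count. With 3 libraries a group the median SE was 0.192, so that small differences between genotypes would not have passed.

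The extreme named most often beside LHCB4.2 was LHCB1.4, with differences from Col-0 of 1.4 ± 0.57 (adjusted p = 0.498) in dof quadruple scions, 0.72 ± 0.56 (adjusted p = 0.691) in erf114,115 scions and 0.66 ± 0.56 (adjusted p = 1) in anac071,096 scions. In intact tissue its differences were -0.39, 0.43 and 0.37 in the same order. The other extremes of the dof quadruple comparisons were PSAD1 (0.07) and PSAD2 (0.08) in intact tissue, PSAD2 (-0.36) and PSAG (0.27) in scions, and LHCB3 (-0.34), LHCB6 (-0.06) and LHCB4.3 (0.00) in rootstocks. Those of erf114,115 were LHCB4.3 (-0.21), PSBX (-0.17) and PSAD2 (0.35) in intact tissue, LHCB4.3 (-0.11), LHCB6 (-0.08) and PSBO2 (0.42) in scions, and LHCB1.2 (-0.17), LHCB6 (-0.14), PSBR (0.18) and LHCB1.4 (0.28) in rootstocks. Those of anac071,096 were LHCB4.3 (-0.33), PSBO2 (0.00) and PSAG (0.24) in intact tissue, LHCB4.3 (-0.10), LHCB6 (0.01) and PSBO2 (0.30) in scions, and PSAH1 (-0.02), PSBY (-0.01), LHCA4 (0.21) and LHCB1.4 (0.30) in rootstocks. None of these passed.

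LHCB4.2 (AT3G08940, chr3:2717557-2718923, plus strand), which encodes the CP29 form beside LHCB4.1 (AT5G01530, chr5:208866-210548, plus strand), was the gene that stood out in dof quadruple. In intact tissue LHCB4.2 stood at 5928, 4553 and 4768 CPM in Col-0, 3766, 2881 and 2817 in dof quadruple, 6459, 4343 and 4432 in erf114,115 and 5479, 5267 and 4872 in anac071,096. In scions LHCB4.2 stood at 801, 669.8 and 915 CPM in Col-0, 604, 513 and 585 in dof quadruple, 1208, 835 and 844 in erf114,115 and 1268, 745 and 762 in anac071,096. In rootstocks LHCB4.2 stood at 2808, 2289.8 and 2966 CPM in Col-0, 1784, 1350.2 and 1685 in dof quadruple, 3536, 2253 and 2937 in erf114,115 and 2937, 3044 and 2849 in anac071,096. In each tissue all dof quadruple libraries were below all libraries of the other genotypes. The group means were 3154 ± 530.4, 568 ± 48.1 and 1606 ± 227 CPM (SD, n = 3) in dof quadruple against 5083 ± 739, 795 ± 123 and 2688 ± 354 in Col-0. The log2 difference from Col-0 was -0.69 ± 0.21 (adjusted p = 0.0614) in intact tissue, -0.49 ± 0.21 (adjusted p = 0.613) in scions and -0.74 ± 0.21 (adjusted p = 0.0452) in rootstocks, and the last alone passed. Leaving out any of 5 libraries ended that call, since the adjusted p was 0.126 and 0.173 without Col-0 rootstock replicates 1 and 3, and 0.0726, 0.246 and 0.0996 without dof quadruple rootstock replicates 1, 2 and 3. It was also lost with RLE size factors (0.0503) and with no count filter (0.0716), while the intact difference passed with DESeq2 (0.0235). Averaged over the 3 tissues, a contrast chosen after the values were seen, the difference was -0.64 ± 0.12 (adjusted p 0.000525). LHCB4.2 was the single member called there, where 8.48% of all tested loci were called.

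LHCB4.1 did not follow. The count of LHCB4.1 per count of LHCB4.2 was 1.07 to 1.14 in intact dof quadruple tissue against 0.752 to 0.871 in the 9 intact libraries of the other genotypes. In scions it was 1.31 to 1.63 against 0.884 to 1.12, and in rootstocks 1.33 to 1.49 against 0.895 to 1.06. The dof quadruple libraries did not overlap the others in any tissue. This comparison was chosen after the values were seen and carries no test. The coding sequences of the pair are 81.1% identical, and their transcripts share no 100-base window.

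**Figure D5:**
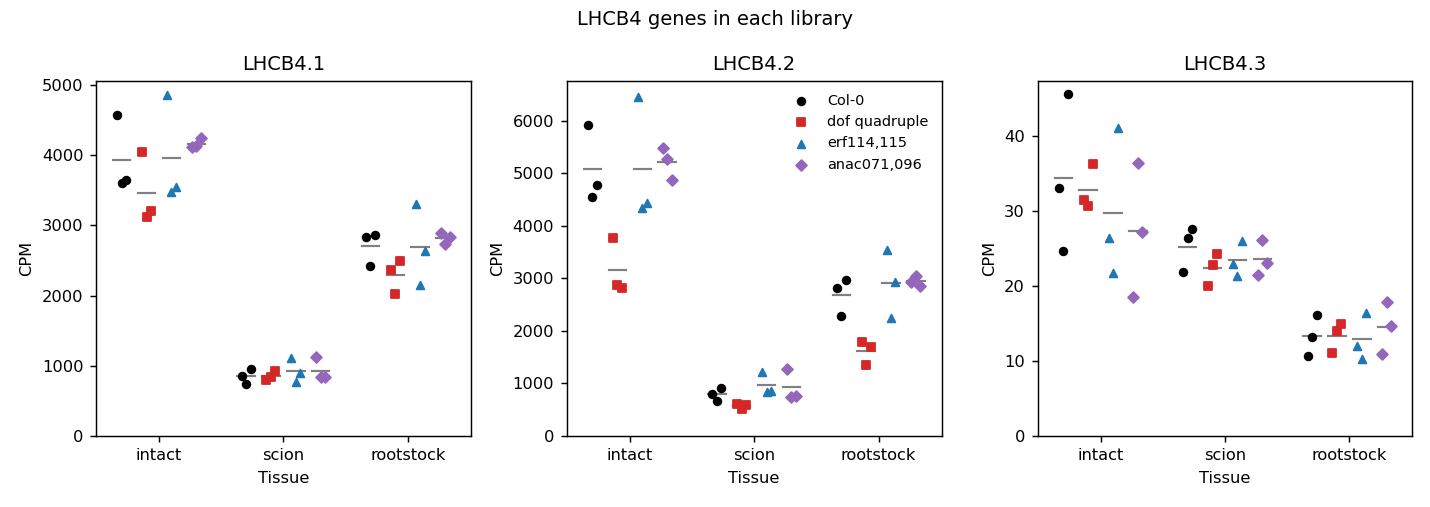
Level of the LHCB4 genes in each library, in CPM, by tissue and genotype; each point is a library, grey lines are group means (n = 3), and the axes differ between panels. LHCB4.2 is lower in dof quadruple than in every other genotype in each tissue, LHCB4.1 differs less, and LHCB4.3 is lowest in rootstocks.

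The response to grafting, that is the change from intact tissue in a mutant minus that in Col-0, was tested for each mutant and each side of the junction. Of the 36 genes 0 passed in any of these 6 comparisons. In scions 0.945% of all tested loci passed for dof quadruple, 0.0513% for erf114,115 and 0.0462% for anac071,096, and in rootstocks 0.899%, 0.0462% and 0.205%. At an unadjusted p under 0.05 there was 1 gene, in dof quadruple scions, and DESeq2 called 0 in all 6. That gene was LHCB1.4, whose difference in response was 1.79 ± 0.80 (adjusted p = 0.626) with a 95% interval of 0.16 to 3.42. LHCB1.3 followed with 0.53 ± 0.46 (adjusted p = 0.931). In dof quadruple rootstocks LHCB1.3 had 0.10 and PSBX 0.12, and in dof quadruple scions LHCB4.3 had -0.11. In erf114,115 the extremes were LHCB6 (-0.11), PSBX (0.32) and LHCB2.1 (0.37) in scions and LHCB1.2 (-0.22), PSBX (0.23) and PSBR (0.34) in rootstocks. In anac071,096 they were LHCB6 (-0.17), PSBX (-0.09), LHCB1.4 (0.28) and PSBO2 (0.30) in scions and PSAG (-0.17), PSBR (0.16) and LHCB4.3 (0.45) in rootstocks. The median SE of these differences was 0.271.

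Other genes of the photosynthetic membrane went the same way in Col-0 scions. Of 10 other photosystem genes 10 fell (median log2 change -2.61), among them LHCB2.3, another LHCB2 gene (-4.73 ± 0.36, adjusted p = 6.73e-12), LHCA6, an antenna protein that ties PSI to the NDH complex (-4.90 ± 0.46, adjusted p = 3.19e-10), and LHCA5 and PSAE2. LHCB2.3 went from 651, 652 and 548 CPM in intact tissue to 17.6, 16.1 and 36.1 in scions and 115, 93.0 and 140.4 in rootstocks. Of 11 tested genes for electron carriers and ATP synthase 11 fell (-2.0), of 5 for the insertion of antenna proteins 5 (-1.52), of 5 for light-stress relatives of the antenna 3 (-1.97), and of 3 for thylakoid kinases and their phosphatase 3 (-2.21). Genes with the smallest adjusted p were ATPG, PETE1, FNR1 and PETC among the carriers, ALB3, CPSRP43, LTD and CPFTSY in insertion, OHP1, OHP2 and LIL3.1 among the relatives, and STN8, TAP38 and STN7. All 5 genes for the Rubisco small subunit and its activase fell (-3.35), with RCA, RBCS1B, RBCS3B and RBCS2B first, and 11 of 12 tested genes of chlorophyll synthesis (-1.82), with CRD1, CHLM, HEMA1 and CAO first. Of 8 plastid-encoded photosystem genes 4 fell (-1.47), PSAA, PSBA, PSBB and PSBE, and since polyA RNA was sequenced and plastid transcripts mostly lack long tails, these levels are uncertain. Of all tested loci 25.2% were called lower in Col-0 scions and 17% in Col-0 rootstocks, so that the smaller rootstock counts here are near or below that share. In Col-0 rootstocks the numbers that fell were 5 of 10, 3 of 11, 3 of 5, 2 of 5, 1 of 3 (with 1 that rose), 4 of 5, 6 of 12 and 0 of 8 in the same order of lists.

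Genes of chlorophyll breakdown formed the list in which most genes rose in rootstocks. In Col-0 5 of 7 tested genes rose there and 0 fell (median log2 change 0.83), while in scions 1 rose and 4 fell (-0.74). Of all tested loci 22.6% were called higher in Col-0 rootstocks and 29% in Col-0 scions. NYC1, which reduces chlorophyll b, stood at 64.3, 72.5 and 59.7 CPM in intact tissue and 99.4, 94.9 and 103 in rootstocks (0.60 ± 0.15, adjusted p = 0.00198). PAO, which opens the pigment ring, stood at 35.7, 43.1 and 27.5 and 68.6, 92.1 and 55.6 CPM (1.02 ± 0.21, adjusted p = 0.00018), PPH at 41.3, 45.3 and 41.2 and 71.1, 74.9 and 86.1 (0.86 ± 0.14, adjusted p = 1.14e-05), and SGR1 at 27.1, 23.0 and 25.7 and 40.3, 44.6 and 50.03 (0.83 ± 0.18, adjusted p = 0.000462). The number that rose was 1 of 7 in dof quadruple, 5 of 7 in erf114,115 and 5 of 7 in anac071,096, where 1 fell, beside 22.9%, 26.9% and 21.7% of all tested loci called higher. In dof quadruple rootstocks NYC1 was lower than in Col-0, with a log2 difference of -0.71 ± 0.15 (adjusted p = 0.00388), and so was SGR2, a relative of SGR1, with -2.67 ± 0.67 (adjusted p = 0.0183). In anac071,096 rootstocks SGR2 was lower too, with -4.96 ± 0.80 (adjusted p = 0.000355). ALB3, an insertase for antenna proteins, and TAP38, the phosphatase that acts on LHCII, were also lower in dof quadruple rootstocks, with -0.57 ± 0.13 (adjusted p = 0.0101) and -0.66 ± 0.14 (adjusted p = 0.00461).

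Regulators of photosystem genes fell in scions and were mixed in rootstocks. All 13 tested fell in Col-0 and erf114,115 scions and 12 in those of dof quadruple and anac071,096. Of all tested loci 25.2% were called lower in scions of Col-0, 25.6% in dof quadruple, 21.6% in erf114,115 and 22.9% in anac071,096. In rootstocks 6 fell in Col-0, 7 in dof quadruple, 7 in erf114,115 and 4 in anac071,096, and 1 rose in each of the last 2. Beside these stand 17%, 17.4%, 17.9% and 16.4% of all tested loci called lower, and 26.9% and 21.7% called higher in the last 2. The paired activators of chloroplast genes, GLK1 and GLK2, went apart. GLK1 stood at 89.1, 97.3 and 126 CPM in intact Col-0 tissue, 58.6, 60.8 and 71.5 in scions and 31.6, 33.7 and 27.5 in rootstocks (log2 change -0.71 ± 0.18, adjusted p = 0.00161 in scions and -1.75 ± 0.19, adjusted p = 7.59e-09 in rootstocks). GLK2 stood at 269.9, 262 and 231, 66.4, 70.6 and 73.9 and 272, 256 and 227 CPM (log2 change -1.86 ± 0.18, adjusted p = 5.74e-10 in scions and -0.02 ± 0.17, adjusted p = 0.952 in rootstocks). GLK1 thus fell on both sides, GLK2 in scions. HY5, a light-signalling activator, stood at 25.4, 18.6 and 28.6, 6.47, 11.2 and 10.2 and 24.4, 40.5 and 61.8 CPM, and its rootstock change was 0.80 in Col-0, 0.86 in dof quadruple, 1.22 in erf114,115 and 1.21 in anac071,096 (adjusted p 0.0817, 0.0634, 0.0077 and 0.00981). It was the regulator that rose in erf114,115 and anac071,096 rootstocks.

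The GATA factors GNC and CGA1 and the sigma factor SIG5 were among the deepest falls of the regulators in Col-0 scions. SIG2, SIG5 and SIG6 are plastid sigma factors, which direct the plastid's own polymerase. GNC went from 29.3, 25.1 and 25.7 CPM in intact Col-0 tissue to 3.83, 4.24 and 3.93 in scions and 30.2, 46.7 and 39.2 in rootstocks (log2 change -2.74 ± 0.24, adjusted p = 1.31e-10 in scions and 0.54 ± 0.22, adjusted p = 0.057 in rootstocks). CGA1 went from 30.7, 22.0 and 26.6 to 1.93, 1.76 and 2.02 and 12.9, 13.9 and 19.0 CPM (log2 change -3.79 ± 0.45, adjusted p = 3.59e-08 in scions and -0.79 ± 0.40, adjusted p = 0.116 in rootstocks). SIG5 went from 165, 94.3 and 205 to 10.5, 14.5 and 18.4 and 93.9, 160.2 and 220.2 CPM (log2 change -3.42 ± 0.34, adjusted p = 1.12e-09 in scions), and SIG6 and SIG2 changed in scions by -2.09 and -1.81. The phytochrome-interacting factors PIF1, PIF3, PIF4 and PIF5, which hold photosynthesis genes back in the dark, changed in scions by -2.02, -1.34, -2.47 and -1.98, and GUN1, of plastid-to-nucleus signalling, by -1.02. The list thus held known activators and known repressors of these genes that fell in scions. Between genotypes a single regulator passed, CGA1, which was lower in intact dof quadruple tissue than in Col-0 (-1.35 ± 0.40, adjusted p = 0.0469), and 0 passed in the response comparisons. In that intact comparison 4.59% of all tested loci passed in either direction. CGA1 did not pass in dof quadruple rootstocks (-1.23 ± 0.41, adjusted p = 0.0924) or scions (-0.46 ± 0.46).

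Sequence features that the choice of genes did not use were counted in the 250 bases before to 50 bases after the start of each gene, on both strands, and set beside the 27443 protein-coding promoters of that length. The G-box CACGTG occurred in 12 of the 37 stretches (32.4%) against 7.7% of all, CCAATC in 14 (37.8%) against 12.3%, the I-box GATAAG in 17 (45.9%) against 14.6%, GCCAC in 19 (51.4%) against 18.9%, TATCCA in 19 (51.4%) against 16.1%, and the evening element AAAATATCT in 0 against 2.8%. Of the 15 G-box matches 10 overlapped a GCCAC match, so these motifs are not independent counts. Within the genes the G-box occurred in 5 of 6 stretches of the oxygen-evolving side and in 0 of 8 of the major PSII antenna, and the I-box in 6 of 8 of the other PSI subunits. These are counts of letters, with no test, and no match says only that the letters are not in this window.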

How the data were processed

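RNA-seq was measured in 36 libraries of polyA-selected RNA (NEBNext Ultra RNA kit, paired-end reads). The counts per locus were deposited by the authors, not normalised, and per the submitters' processing notes fastp, HISAT2, HTSeq, DESeq2 and the build TAIR10 were used. Versions and the strand setting for counting are absent from the sources used here.

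All loci entered edgeR 4.0.16 (R 4.3.3) with TMM scaling, filterByExpr at a minimum count of 10 and 12 groups, which kept 19476 of 33341 loci. The quasi-likelihood test was two-sided, with Benjamini-Hochberg adjustment within each of 27 comparisons and calls at an adjusted p under 0.05. Values are log2 change ± SE. P-values of members named one by one come from this fit. CPM were computed from TMM-scaled totals over tested loci. Library totals of 19.53 to 30.49 M counts and 3 replicates limit precision. Steps were tested on simulated data.

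Count ratios of 7 gene pairs used an exact permutation test within genotypes. The planned pair of LHCB1.5 and LHCB1.4 could not be tested, since LHCB1.5 was at 0. Positions, overlaps and sequences are from RefSeq's TAIR10.1 (Biopython 1.88), on which all 37 genes matched by locus identifier, while the deposited counts carry no coordinates.

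Members, lists and comparisons were chosen with earlier results of these data known. Genes given in every library were the highest per kb in each role, the 2 most positive and 2 most negative of each comparison, those failing the filter and those called against the majority. Other pathway genes were named by smallest adjusted p, and further named genes were chosen after their values were seen. Alternatives were upper-quartile and RLE scaling, DESeq2 1.42.0, no filter, an adjusted p under 0.01, only the groups compared, summed paralogs, a replicate block, another pseudocount and each library left out.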

Additional observations from a re-analysis of the deposited data

Results flagged for a closer look

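On average LHCB1.4 was higher than in intact tissue in rootstocks, where rootstock and intact libraries overlapped in every genotype, and lower in scions. The test of scion against rootstock gave log2 differences of -6.34 in Col-0, -4.63 in dof quadruple, -5.9 in erf114,115 and -5.98 in anac071,096. The scion fall passed in each genotype, and the rootstock change, tested without a replicate block and with all libraries, passed in none.

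The ratio of PSBO1 to PSBO2 moved in opposite directions on the sides of the junction: its log2 difference from intact tissue was 0.653 in scions and -0.158 in rootstocks. Every scion library lay above the intact mean of its genotype and every rootstock library below it. The difference between scion and rootstock was not itself tested.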

How the results depend on the processing

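The scion results held under every alternative run: 35 or 36 of 36 genes were called lower than in intact tissue, or 32 where near-identical copies were summed into fewer genes. Scion against rootstock gave 34 to 36 calls, or 33 with summed copies. The rootstock counts moved, and the share of all tested loci called under each alternative is not given, so they stand without a share to compare. At an adjusted p under 0.01 they were 14 in dof quadruple and 10 in erf114,115. Upper-quartile scaling gave 25 in Col-0, 29 in dof quadruple, 28 in erf114,115 and 29 in anac071,096, and 7 were called in erf114,115 with only the groups compared in the fit. DESeq2 gave 21, 27, 23 and 22 in the same order of genotypes. Leaving out 1 library gave, in either direction, 10 to 16 in Col-0, 13 to 24 in dof quadruple, 10 to 23 in erf114,115 and 11 to 16 in anac071,096. Lower in dof quadruple than in Col-0 was 1 gene in intact tissue with DESeq2, and in rootstocks 0 at an adjusted p under 0.01, with RLE size factors or with no filter, and 0 to 1 with a library left out. Of 6102 values of single genes under the alternatives, 5825 kept their side of the threshold, 157 lost and 120 gained a call, and 0 that were called changed sign. The direction of values that were called in neither setting was not compared. The ratios of gene pairs kept their direction with a pseudocount of 5 and with any library left out, except that of PSBQ1 to PSBQ2 in scions, which was not called. Where a count moved, the cause was not tested. Summed copies leave fewer genes to call and a left-out library leaves fewer samples. With a library left out the rootstock counts went up in some runs and down in others.

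Replicate numbers were also entered as a block, although nothing in the labels says that a number marks shared plants or days. Same-numbered libraries of different groups had correlations of their deviations from -0.536 to 0.801 (median 0.135, 198 pairs) against -0.732 to 0.664 (median -0.0744, 396 pairs) for other numbers, and 26 of 36 libraries correlated best with their own number. With the replicate block 21, 29, 23 and 22 genes were called in rootstocks of the 4 genotypes, of which 20, 28, 22 and 21 were lower and 1 higher. The share of all tested loci called with the block is not given. The higher one was LHCB1.4, called with 1.31 in Col-0 (adjusted p 0.00206), 1.51 in dof quadruple (0.000548), 1.13 in erf114,115 (0.00613) and 1.2 in anac071,096 (0.00446). LHCB4.3 was then called in dof quadruple scions (-0.56, adjusted p 0.0199). For dof quadruple against Col-0 1 gene was called lower in intact tissue, LHCB4.2 (-0.69, adjusted p 0.00494), and 1 gene was called in rootstocks, as in the main fit. Also called were 1 gene higher in scions and 1 higher in the scion response, where the main fit called 0. Genes of few counts such as LHCB4.3 and context genes under 5 CPM have the widest errors.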
